A study of Rattus norvegicus and Mus musculus with 10 samples.

Results

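The genes described here mark, between them, T cells that stay in a tissue and T cells that circulate: Cd69, Rgs1, Itgae, Klf2, S1pr1, S1pr4, Lef1, Tcf7 and Il7r. The members were taken by gene symbol, and all 9 were found among 32883 genes of the rat table and among 31053 genes of the mouse table. Single-cell RNA libraries came from naive Lewis rats (25 animals in the study) and from skull dura of C57BL/6 mice. The rat groups were dura, pia, choroid plexus, CNS and CSF, set against blood. The mouse groups were 3 pooled mice at the peak of active experimental autoimmune encephalomyelitis (EAE), a T cell driven inflammation of the CNS, set against 4 pooled naive mice that were not immunized. Cells of dura, pia, choroid plexus and CNS had been sorted as positive for CD45 but negative for a CD45 label given into the blood stream. CSF cells were not sorted, and blood mononuclear cells came from a density gradient. Each group was 1 library, so no difference has a replicate check, no test was possible, and all intervals (95%) cover counting error only.

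A T cell leaves a tissue by following sphingosine-1-phosphate (S1P) into lymph or blood through the receptor S1PR1, whose gene is switched on by the transcription factor KLF2. CD69 binds S1PR1 and takes it off the cell surface, and is a common mark of tissue-resident memory T cells together with CD103, the integrin subunit encoded by Itgae. Rgs1 encodes a brake on G protein signalling from chemokine and S1P receptors, while S1pr4 encodes a further S1P receptor of lymphocytes. Lef1 and Tcf7 encode related transcription factors of naive and stem-like T cells. Il7r encodes the receptor chain for the survival cytokine IL-7 and is carried by naive, memory and resident T cells alike.

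The results turn most on Rgs1, Lef1 and S1pr1, so the RefSeq promoters of these rat genes (GRCr8, 300 bases around the start, 5′ to 3′ on the gene's strand) are shown. The counts themselves were made on Rnor_6.0. The Rgs1 promoter lies at chr13:58573138-58573437 on the minus strand, that of Lef1 at chr2:222340463-222340762 on the plus strand, and that of S1pr1 at chr2:206314021-206314320 on the minus strand. Capitals mark TATAAA or its complement in Rgs1, and CACCC, the core bound by KLF factors, or its complement GGGTG in Lef1 and S1pr1.
Rgs1: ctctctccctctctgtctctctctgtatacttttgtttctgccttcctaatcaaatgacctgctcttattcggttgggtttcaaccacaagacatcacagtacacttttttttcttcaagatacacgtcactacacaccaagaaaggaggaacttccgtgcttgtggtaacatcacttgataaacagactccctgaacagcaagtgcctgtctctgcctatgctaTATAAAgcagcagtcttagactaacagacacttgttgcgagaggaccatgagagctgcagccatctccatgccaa
Lef1: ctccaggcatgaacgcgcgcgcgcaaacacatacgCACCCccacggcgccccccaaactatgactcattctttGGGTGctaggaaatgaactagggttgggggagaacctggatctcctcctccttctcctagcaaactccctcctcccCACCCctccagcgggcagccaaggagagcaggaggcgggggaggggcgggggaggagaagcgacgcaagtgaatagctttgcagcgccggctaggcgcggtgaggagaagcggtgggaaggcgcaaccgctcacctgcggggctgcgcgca
S1pr1: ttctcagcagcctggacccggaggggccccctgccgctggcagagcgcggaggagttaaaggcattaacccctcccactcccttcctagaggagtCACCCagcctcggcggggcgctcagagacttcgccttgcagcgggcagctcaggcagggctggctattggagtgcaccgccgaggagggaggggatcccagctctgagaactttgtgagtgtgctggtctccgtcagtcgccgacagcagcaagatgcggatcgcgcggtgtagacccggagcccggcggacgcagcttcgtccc
Both motifs were searched on both strands, and they do not overlap each other. The Lef1 promoter held 3 matches of CACCC and the S1pr1 promoter 1, as did those of S1pr4 and Tcf7, while Rgs1, Itgae and Il7r held 0; over all 33469 promoters of this length, 54.9% held at least 1. Rgs1 alone of the 7 members with an entry held TATAAA, against 14.2% of all promoters. Such matches are a description of the letters only. In the mouse (mm10) Rgs1 lies at chr1:144242296-144249242, Cd69 at chr6:129267325-129275436, Lef1 at chr3:131110471-131224356, S1pr1 at chr3:115710433-115715072 and Klf2 at chr8:72319033-72321656.

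Annotated cells numbered 2272 to 4953 per rat library, with medians of 981 to 2704 UMIs (unique molecules counted) per cell, and 4579 in EAE and 2776 in naive mice, with medians of 11743 and 4163.5 UMIs. Barcode sequences found in more than 1 library made up 1.16% in rat and 0.0953% in mouse. Levels are given as CPM, UMIs on a scale that gives every cluster and group an equal total, so a level cannot tell more cells with the RNA from more RNA per cell. The authors' rat cluster CD4 Tc held 591 cells in dura, 495 in pia, 116 in choroid plexus, 53 in CNS, 1531 in CSF and 740 in blood. Its label was only partly borne out. T cell markers summed to 4736 to 9023 CPM in every compartment, but Cd4 itself stood at 5.39 CPM in dura and 15.0 CPM in blood, below Cd8a at 126 CPM in dura and 440 CPM in blood. In cluster CD8 Tc, Cd8a stood at 1122 CPM in dura and 1663 CPM in blood. In pia and CNS, Cd4 was not detected in CD4 Tc, and how well these libraries count rat Cd4 was not tested. The clusters are therefore called by the authors' names without reading CD4 T cells from them. Of the dural cells in CD4 Tc, 405 of 591 had a UMI of Cd3d, Cd3e or Cd3g, against 737 of 740 in blood.

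In cluster CD4 Tc, the tissue-retention genes Rgs1 and Cd69 were far higher in dura, pia and choroid plexus than in blood, and Lef1 was far lower. S1pr1, the egress receptor, and S1pr4, a further S1P receptor, differed from blood by less than 2-fold in dura and pia. Among the 8 members with at least 20 UMIs over dura and blood, 4 were 2-fold or more higher in dura (Rgs1, Cd69, Itgae and Il7r) and 2 lower (Lef1 and Tcf7). Over all 7119 genes with as many UMIs, 28.3% passed 2-fold, with 13.6% higher in dura and 14.7% lower, with a median log2 ratio of -0.01. Klf2 had too few UMIs to be compared. Marker sums of lymphocyte types in this cluster also differed between compartments. Regulatory T cell markers summed to 358 CPM in dura, 357 CPM in pia, 151 CPM in choroid plexus, 263 CPM in CNS and 31.9 CPM in CSF, against 31.9 CPM in blood, with 4 of 4 detected in both dura and blood. Markers of innate lymphoid cells (ILC) summed to 527 CPM in dura, 425 CPM in pia, 116 CPM in choroid plexus, 426 CPM in CNS and 91.3 CPM in CSF, against 107 CPM in blood, with 5 of 6 detected in dura and 2 of 6 in blood, where Il1rl1, Areg, Il13 and Il5 were at 0. Natural killer (NK) cell markers summed to 366 CPM in dura, 612 CPM in pia and 767 CPM in choroid plexus. They summed to 502 CPM in CNS and 357 CPM in CSF, against 415 CPM in blood. The part of these cell types in the results was not tested. The bar plot of the members by compartment shows these levels.

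**Figure D1:**
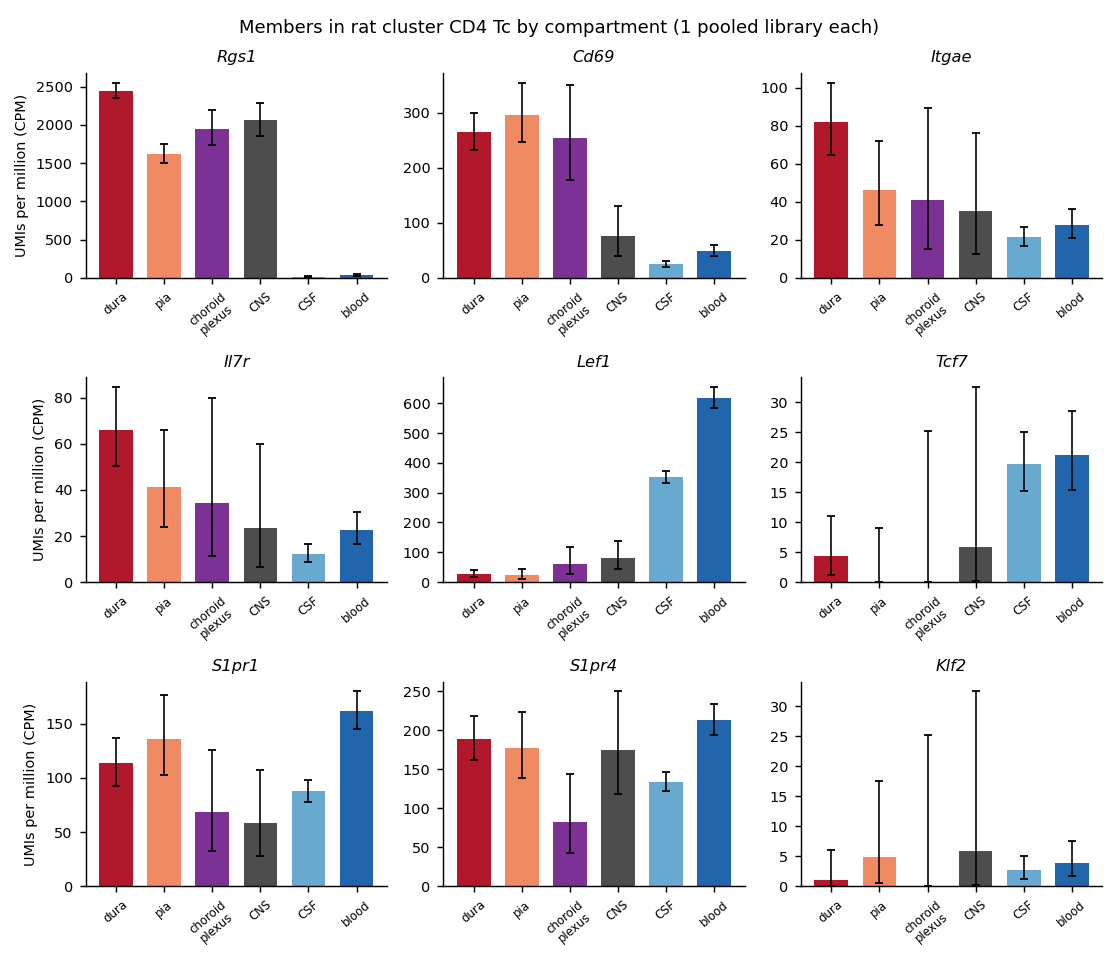
Bars give the CPM of each member in rat cluster CD4 Tc, 1 pooled library per compartment, on axes that start at 0; lines are exact Poisson 95% intervals. Rgs1 stood between 1618 and 2444 CPM in the 4 solid tissues and at 17.9 and 38.6 CPM in CSF and blood, while Lef1 ran the other way and S1pr4 stayed within 82.2 to 213 CPM.

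Rgs1 was counted at 2444 CPM in dura (2345 to 2547), 1618 CPM in pia, 1952 CPM in choroid plexus, 2059 CPM in CNS and 17.9 CPM in CSF, against 38.6 CPM in blood (30.6 to 48.1). All 4 solid tissues stood above both fluids with no overlap of intervals. The ratio to blood was 63.2 in dura (50.6 to 80.1), 41.9 in pia (33.2 to 53.5), 50.5 in choroid plexus (39.3 to 65.6) and 53.3 in CNS (41.7 to 68.8). After each cell had been thinned to 500 UMIs, 57.7% of dural cells (53.6 to 61.7) held an Rgs1 UMI, 45.7% of pial and 53.5% of choroid plexus cells, against 0.914% in CSF and 1.89% in blood; 46 pial and 9 choroid plexus cells were too shallow and left out. Before thinning these shares were 81.7% in dura, 56.4% in pia, 66.4% in choroid plexus, 3.72% in CSF and 8.65% in blood.

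Cd69 was counted at 264 CPM in dura (232 to 300), 296 CPM in pia, 253 CPM in choroid plexus, 75.8 CPM in CNS and 24.5 CPM in CSF, against 49.3 CPM in blood (40.2 to 59.8). Dura, pia and choroid plexus were alike within their intervals, and the CNS value, on 13 UMIs, overlapped that of blood. The ratio to blood was 5.36 in dura (4.24 to 6.83), 6.01 in pia (4.59 to 7.90), 5.14 in choroid plexus (3.43 to 7.56) and 1.54 in CNS (0.792 to 2.75). Among cells with a Cd3 UMI, Cd69 stood at 179 CPM in dura and 251 CPM in pia, against 49.4 CPM in blood. The log2 ratio of dura to blood was 1.86 in those cells, beside 2.42 in the whole cluster. Thinned to 500 UMIs, 11.8% of dural cells (9.29 to 14.6) held a Cd69 UMI, against 2.30% in blood (1.35 to 3.66). The share in the dural cluster myeloid1, which serves as background, was 0.172%; before thinning it was 0.808%, against 25.9% of dural and 10.8% of blood cells in CD4 Tc.

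Itgae stood at 82.0 CPM in dura (64.6 to 103), 46.2 CPM in pia, 41.1 CPM in choroid plexus, 35.0 CPM in CNS and 21.5 CPM in CSF, against 28.0 CPM in blood (21.3 to 36.2). Dura alone cleared the interval of blood, at a ratio of 2.93 (2.05 to 4.19). Pia, choroid plexus and CNS rested on 6 to 19 UMIs and could not be told from blood at this depth. Il7r followed the same order, with 65.8 CPM in dura (50.3 to 84.5), 41.3 CPM in pia, 34.2 CPM in choroid plexus, 23.3 CPM in CNS and 12.2 CPM in CSF, against 22.7 CPM in blood (16.7 to 30.2). Its ratio of dura to blood was 2.90 (1.95 to 4.33), a log2 ratio of 1.54, which came to 0.81 among cells with a Cd3 UMI, short of 2-fold. Among such cells Il7r stood at 20.6 CPM in pia (6 UMIs) against 22.8 CPM in blood, so that its log2 ratio turned to -0.15, from 0.86 in the whole cluster.

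Lef1 was counted at 28.0 CPM in dura (18.3 to 41.1), 24.3 CPM in pia, 61.6 CPM in choroid plexus, 81.7 CPM in CNS and 352 CPM in CSF, against 619 CPM in blood (585 to 654). Every solid tissue lay below both fluids, and CSF lay below blood. The log2 ratio to blood was -4.46 in dura, -4.67 in pia, -3.33 in choroid plexus and -2.92 in CNS. Thinned to 500 UMIs, 1.18% of dural and 1.07% of pial cells held a Lef1 UMI, against 16.4% in CSF and 26.9% in blood (before thinning 2.88%, 2.02%, 46.8% and 78.1%). Tcf7 was sparse: 4 UMIs in dura, 0 in pia, 0 in choroid plexus, 1 in CNS and 66 in CSF, against 44 in blood. That made 4.31 CPM in dura (1.18 to 11.0) and 19.7 CPM in CSF, against 21.3 CPM in blood (15.4 to 28.5). The ratio of dura to blood was 0.203 (0.053 to 0.558). In pia Tcf7 was 2.92-fold lower than in blood with 0 UMIs set to 3, and the interval allowed a difference as small as 2.27-fold. In choroid plexus 3 UMIs would already come close to the blood level.

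S1pr1 was counted at 113 CPM in dura (92.6 to 137), 136 CPM in pia (103 to 177), 68.5 CPM in choroid plexus, 58.3 CPM in CNS and 87.8 CPM in CSF, against 161 CPM in blood (145 to 180). The intervals of pia and blood overlapped, and dura was lower by less than 2-fold. The ratio to blood was 0.702 in dura (0.558 to 0.877), 0.843 in pia (0.624 to 1.12), 0.425 in choroid plexus (0.202 to 0.791) and 0.362 in CNS (0.172 to 0.673). Among cells with a Cd3 UMI, S1pr1 stood at 162 CPM in dura and 189 CPM in pia, against 162 CPM in blood. S1pr4 stood at 189 CPM in dura (162 to 219), 177 CPM in pia, 82.2 CPM in choroid plexus, 175 CPM in CNS and 134 CPM in CSF, against 213 CPM in blood (194 to 234). Unlike S1pr1, it was not past 2-fold lower in CNS, at a ratio of 0.821 (0.548 to 1.19). Its ratio of dura to blood was 0.886 (0.739 to 1.06), and choroid plexus was the 1 tissue past 2-fold, at 0.386 (0.198 to 0.681). Klf2 gave 1 UMI in dura, 2 in pia, 0 in choroid plexus, 1 in CNS and 9 in CSF, against 8 in blood. Klf2 was at most 16.5 CPM (6 UMIs, in CSF Bc1) in every rat cluster and compartment with more than 1 UMI of it. Whether the rat gene model holds the transcript end that these libraries read was not tested, so the rat counts say nothing of how much Klf2 the cells expressed.

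Pia, choroid plexus, CNS and CSF were each set against the same blood library. Of the 8 members tested, 2 were higher and 2 lower in pia, where 10.9% of all genes were higher and 21.9% lower (32.8% in all). In choroid plexus 2 were higher and 3 lower, beside 9.29% and 20.1% of all genes (29.4%), and in CNS 1 was higher and 3 lower (Lef1, S1pr1 and Tcf7), beside 11.3% and 13.6% (24.9%). The Tcf7 ratio in CNS rested on 1 CNS UMI, at 0.274, with an interval that included no difference (0.0068 to 1.61). In CSF, 0 were higher and 2 lower, beside 10.4% and 14.3% of all genes (24.7%): Rgs1 at a log2 ratio of -1.11 and Cd69 at -1.01. The other 6 ranged from -0.89 to -0.11, beside a median of all genes of -0.32. TMM, a scaling on the bulk of genes, moved all CSF ratios by 0.34, which left Rgs1 at -0.77 and Cd69 at -0.67, short of 2-fold, and turned Tcf7 from -0.11 to 0.23. Among the 51 CSF and 150 blood cells free of macrophage, monocyte and neutrophil markers, Cd69 stood at -0.10, on 4 and 19 UMIs. The CSF cluster held 20838 CPM of stromal and epithelial markers, against 0 CPM in blood, and their part in the result was not tested.

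Set directly against each other, dura and CSF differed in the same members that set dura apart from blood. The ratio of dura to CSF was 136 for Rgs1 (106 to 179), 10.8 for Cd69 (8.38 to 14.0), 5.38 for Il7r (3.56 to 8.19) and 3.81 for Itgae (2.73 to 5.34). It was 0.0798 for Lef1 (0.0519 to 0.117) and 0.219 for Tcf7 (0.058 to 0.588). S1pr1 and S1pr4 were close, at 1.29 (1.02 to 1.62) and 1.41 (1.18 to 1.68), and TMM turned the S1pr1 log2 ratio from 0.37 to -0.07. In all, 4 of 8 members were higher and 2 lower, against 20.7% and 12.1% of all 7743 genes tested (32.8%). As a share of the UMIs of 8 members (all but Il7r), Cd69, Rgs1 and Itgae made up 89.3% in dura (88.1 to 90.4), 85.1% in pia, 91.4% in choroid plexus, 86.9% in CNS and 9.69% in CSF, against 10.2% in blood (9.03 to 11.5). Without Rgs1 the share was 50.8% in dura, 50% in pia, 58.1% in choroid plexus, 25.3% in CNS and 7.17% in CSF, against 7.05% in blood. Klf2 gave at most 9 of these UMIs in any compartment.

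Related genes of both programmes were counted from lists. Of 16 other residency genes listed, 12 had enough UMIs over both sides. All 12 were 2-fold or more higher in dura than in blood. Their median log2 ratio was 5.11 (genes at 0 in blood set to 3 UMIs), beside -0.01 over all genes. The filter sums both sides, so a gene nearly absent from blood entered only when it was high in dura. For such genes the direction was set by the filter. The list was also chosen with earlier results known, so the count of 12 is a description only. The top of that list was Nr4a3, an early-response nuclear receptor, at 69.0 CPM in dura against 0.483 CPM (1 UMI) in blood, and Rgs2, a relative of Rgs1, at 364 CPM against 6.28 CPM. Its lowest ratios belonged to Crem, a cyclic AMP responsive repressor, at 807 CPM in dura against 43.0 CPM in blood, and to the costimulatory receptor gene Icos at 504 CPM against 69.1 CPM. Of 5 other recirculation genes, 3 were lower and 0 higher, with a median of -2.09. The same filter let a gene nearly absent from dura enter only when it was high in blood. This count is therefore a description only, too. Actn1, an actin crosslinker, stood at 5.39 CPM in dura against 63.8 CPM in blood. Bach2, a transcriptional repressor of T cell differentiation, stood at 3.24 CPM (3 UMIs) against 14.0 CPM. Foxo1, which drives Klf2, and the chromatin organizer Satb1 did not pass 2-fold, at log2 ratios of 0.53 and -0.49. In CSF over blood, 2 of 7 other residency genes were higher and 2 lower (median -0.32), and of 7 other recirculation genes 2 were higher (median -0.58).

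**Figure D2:**
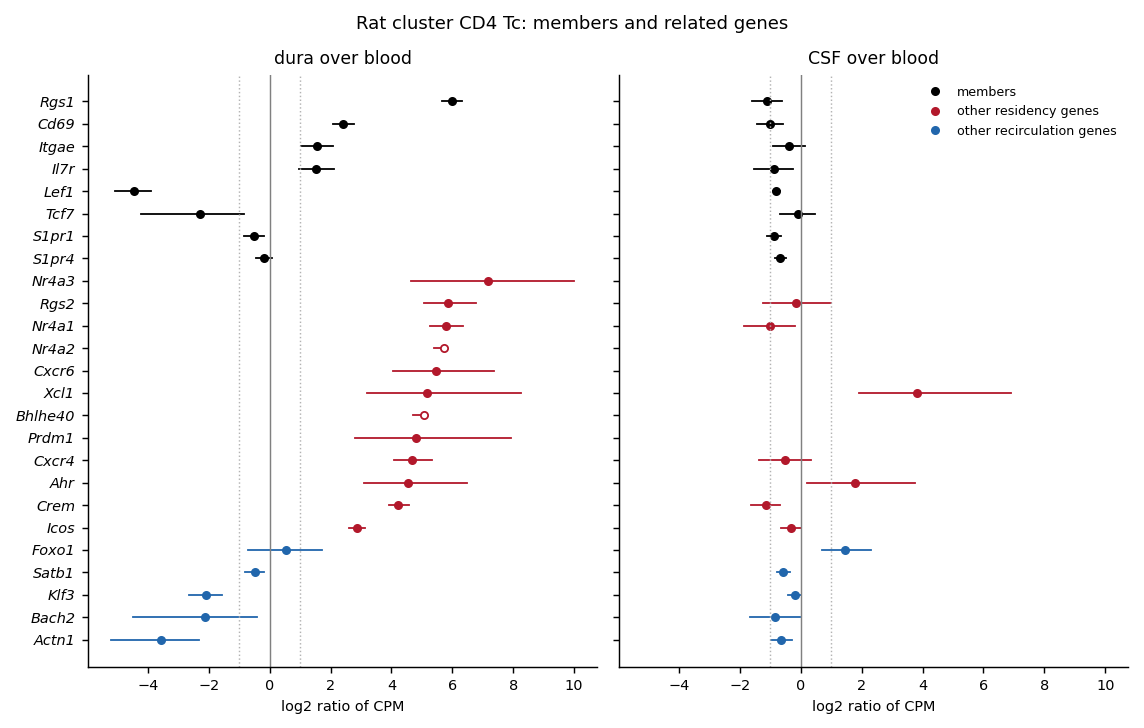
Points are log2 ratios of CPM in rat cluster CD4 Tc, dura over blood on the left and CSF over blood on the right, for genes with 20 or more UMIs over both sides; lines are exact 95% intervals, open points have a side at 0 UMIs set to 3, and dotted lines mark 2-fold. Rgs1 at 5.98 and Lef1 at -4.46 in dura over blood compare with -1.11 and -0.82 in CSF over blood.

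Signalling partners of the members are read beside the 28.3% of all genes that passed 2-fold in dura over blood, 13.6% higher and 14.7% lower. Of 6 genes of the S1P system tested in dura over blood, 0 were higher and 1 lower, the S1P-making kinase gene Sphk1 at 8.63 CPM against 22.2 CPM. Of 7 IL-7 signalling genes, 0 were higher and 2 lower, the transcription factors Stat5a and Stat5b, each at a log2 ratio of -1.01. Of 5 other RGS genes, Rgs2 was higher, and Rgs10 (191 CPM in dura against 506 CPM in blood) and Rgs3 (10.8 CPM against 34.3 CPM) were lower. Of 6 other KLF genes, Klf4 (64.7 CPM in dura against 6.76 CPM in blood) and Klf10 (29.1 CPM against 8.21 CPM) were higher and Klf3 (34.5 CPM against 147 CPM) was lower. Among 6 partners of the TCF factors, 1 was higher and 1 lower.

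Genes of the early stress response, which tissue dissociation is known to raise, also differed between the compartments. Of 11 such genes tested, 11 were 2-fold or more higher in dura than in blood, beside 13.6% of all genes. Their median log2 ratio was 2.75. Here too the filter set the direction of genes nearly absent from blood, so the count is a description only. Among these were Fosb (954 CPM in dura against 0.966 CPM in blood) and Egr1 (138 CPM against 1.45 CPM). Summed levels of the list were 6303 CPM in dura, 9962 CPM in pia, 8302 CPM in choroid plexus and 8646 CPM in CNS. They were 1535 CPM in CSF and 855 CPM in blood. In cells with no UMI of Fos, Jun, Hspa1a and Hspa1b (397 of 591 in dura, 562 of 740 in blood), Rgs1 stood at 2345 CPM in dura against 41.4 CPM in blood, Cd69 at 211 CPM against 41.4 CPM, Lef1 at 19.0 CPM against 636 CPM and S1pr1 at 152 CPM against 163 CPM. The log2 ratios of dura to blood in these cells were 5.83 for Rgs1, 2.35 for Cd69, -5.07 for Lef1 and -0.10 for S1pr1, beside 5.98, 2.42, -4.46 and -0.51 in the whole cluster. S1pr4 turned from -0.17 to 0.12. These cells were chosen on only 4 of the 15 listed stress genes, and Fosb and Egr1 were not among the 4. At this depth a cell without such a UMI can still carry the RNA. The part of the stress response in the ratios was not tested. Macrophage and monocyte markers summed to 3823 CPM in dura, 4086 CPM in pia, 5610 CPM in choroid plexus, 17361 CPM in CNS and 2596 CPM in CSF, against 854 CPM in blood, with 10 of 10 markers detected in each tissue and 7 of 10 in blood. In cells free of myeloid markers (84 of 495 in pia, 150 of 740 in blood), Rgs1 stood at 1747 CPM in pia against 25.7 CPM in blood and Cd69 at 162 CPM against 48.9 CPM. Their part in the CNS values, with 53 cells, was not tested.

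Rgs1 was not restricted to T cells in these libraries. It stood at 1560 CPM in dura, 1728 CPM in pia, 2778 CPM in choroid plexus, 1694 CPM in CNS and 41.3 CPM in CSF in the macrophage-rich cluster myeloid1, with 0 UMIs in the 93 blood cells of that cluster. In cluster NK it stood at 1925 CPM in dura, 1897 CPM in pia, 1987 CPM in choroid plexus, 1023 CPM in CNS and 58.5 CPM in CSF, against 102 CPM in blood. B cells of dura had a lower level, at 129 CPM in Bc1 and 55.5 CPM in Bc2, although dural Bc1 stood far above blood Bc1, as given below. Cd69, in contrast, was low in 3 myeloid clusters of dura: myeloid1, myeloid 2 and myeloid3 stood at 3.30, 2.38 and 2.96 CPM. Rgs1 also lay near Junb and Rgs2 in its pattern over the 19 rat lymphoid groups (Pearson r 0.95 each on log2 CPM, 7388 genes ranked), followed by Zfp36l2 at 0.94. Between members, r was 0.82 for Cd69 and Rgs1 and 0.72 for S1pr1 and S1pr4. Groups from 1 library share its depth and its free RNA, so these values are descriptions.

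**Figure D3:**
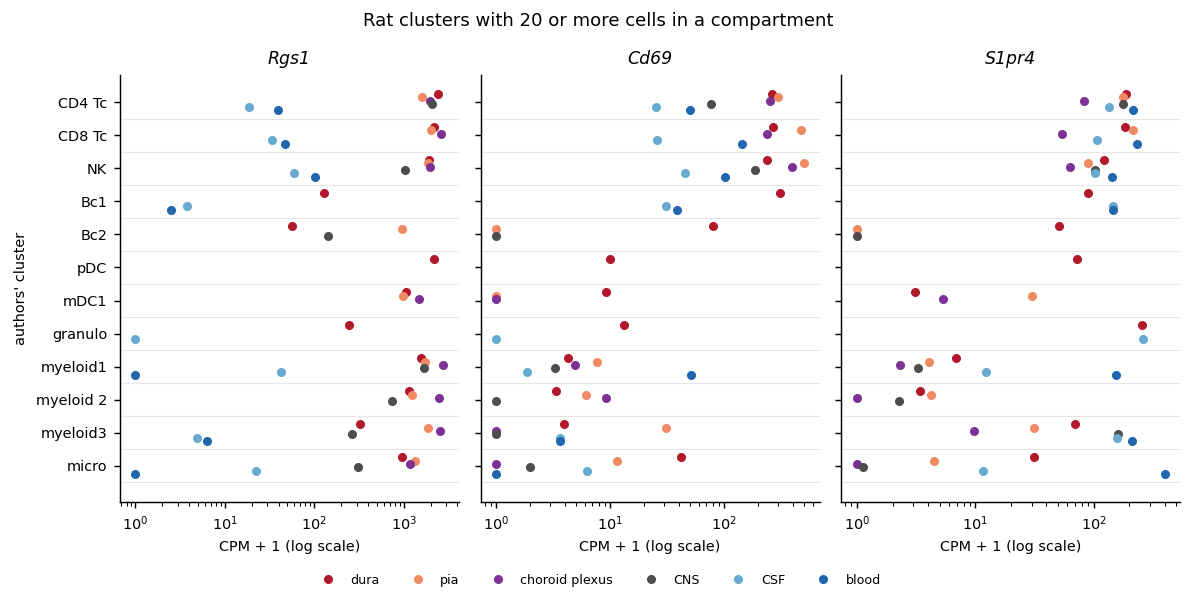
Points give CPM + 1 on a log axis for Rgs1, Cd69 and S1pr4 in each of the authors' rat clusters, 1 point per compartment with 20 or more cells. Rgs1 separated solid tissues from CSF and blood in nearly every cluster, the highest Cd69 points belonged to T, NK and Bc1 cells, and S1pr4 was shared by lymphocytes, granulocytes and the blood and CSF cells of myeloid3.

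The other lymphocytes shared part of the pattern, again against 1 blood library. In cluster CD8 Tc (114 cells in dura, 56 in blood), Rgs1 stood at 2173 CPM in dura against 46.3 CPM in blood, a ratio of 46.9 (24.4 to 103). Cd69 stood at 266 CPM in dura against 144 CPM in blood, short of 2-fold at 1.85 (1.12 to 3.09). Lef1 had 0 UMIs in dura against 27 in blood, 7.31-fold lower with 0 set to 3, which is a set value and no lower bound. S1pr1 stood at 127 CPM in dura against 77.2 CPM in blood, with overlapping intervals. Of 5 members tested, 1 was higher and 1 lower, beside 9.53% and 10.3% of all genes (19.8%). In CSF over blood, Cd69 (3 UMIs in CSF, ratio 0.171, 0.0332 to 0.553), Lef1 and S1pr4 were the 3 members tested and all 3 were lower, beside 5.98% of all genes higher and 21.4% lower (27.4%). Under TMM the S1pr4 log2 ratio moved from -1.12 to -0.96, short of 2-fold. Stromal and epithelial markers summed to 23243 CPM in CSF CD8 Tc against 0 CPM in blood, and neutrophil markers to 648 CPM against 10.3 CPM. Macrophage and monocyte markers summed to 2737 CPM in dura and 2338 CPM in CSF, against 721 CPM in blood, and stress genes to 6286 CPM in dura and 1739 CPM in CSF, against 865 CPM. The part of these in the results was not tested. In dura over CSF, 3 of 4 were higher (Cd69, Rgs1 and S1pr1) and 0 lower, beside 23.4% and 6.62% of all genes (30.0%); S1pr1 rested on 1 CSF UMI.

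In NK cells S1pr1 was also lower in dura, choroid plexus and CSF than in blood, but not by 2-fold in pia and CNS. Cd69 stood at 236 CPM in dura, 504 CPM in pia, 391 CPM in choroid plexus, 186 CPM in CNS and 44.2 CPM in CSF, against 102 CPM in blood. S1pr1 stood at 12.1 CPM in dura, 40.01 CPM in pia, 13.4 CPM in choroid plexus, 48.0 CPM in CNS and 15.7 CPM in CSF, against 56.7 CPM in blood. Its ratio to blood was 0.213 in dura (0.0716 to 0.533), 0.237 in choroid plexus (0.0707 to 0.629) and 0.277 in CSF (0.123 to 0.584), each on 5 to 11 UMIs in the tissue. Of 5 NK members tested in dura over blood, 2 were higher and 1 lower, beside 10.5% and 10.8% of all genes (21.3%). In pia 2 of 4 were higher and 0 lower, beside 7.47% and 23.8% (31.3%), and in CNS 1 of 4 was higher and 0 lower, beside 6.31% and 8.04% (14.3%). In choroid plexus 2 of 5 were higher and 2 lower, beside 8.44% and 17.0% (25.4%); the second lower member was S1pr4, at a ratio of 0.432, whose log2 ratio of -1.21 moved to -0.98 under TMM, short of 2-fold. In CSF 0 of 6 were higher and 2 lower, Cd69 and S1pr1, beside 8.75% and 14.5% (23.3%); under TMM the Cd69 log2 ratio moved from -1.21 to -0.97, short of 2-fold. Stromal and epithelial markers summed to 16903 CPM in CSF NK against 0 CPM in blood. Macrophage and monocyte markers summed to 6370 CPM in dura, 5586 CPM in pia, 7362 CPM in choroid plexus, 17353 CPM in CNS and 2254 CPM in CSF, against 1693 CPM in blood, while NK markers summed to 9190 CPM in dura, 5714 CPM in pia, 10084 CPM in choroid plexus, 24662 CPM in CNS and 8750 CPM in CSF, against 21259 CPM in blood. Stress genes summed to 7498 CPM in dura, 9996 CPM in pia, 10201 CPM in choroid plexus, 8690 CPM in CNS and 1885 CPM in CSF, against 1226 CPM in blood. The part of these in the results was not tested. In B cell cluster Bc1, Cd69 stood at 307 CPM in dura against 37.4 CPM in blood, a ratio of 8.22 (6.33 to 10.8), and Rgs1 at 129 CPM against 1.495 CPM (3 UMIs). S1pr1 stood at 39.3 CPM in dural Bc1 against 89.2 CPM in blood, a ratio of 0.440 (0.294 to 0.641); in cells without Fos, Jun, Hspa1a and Hspa1b its log2 ratio moved from -1.18 to -0.96, short of 2-fold. Macrophage and monocyte markers summed to 5626 CPM in dural Bc1 against 1076 CPM in blood, and stress genes to 4211 CPM against 883 CPM. Here 2 of 6 members were higher and 1 lower, beside 13.3% and 14.6% of all genes (27.9%). In Bc1 of CSF over blood, 0 of 5 members were higher and 1 lower, Itgae on 2 CSF UMIs at a ratio of 0.315 (0.0367 to 1.23), beside 6.47% and 20.2% (26.7%).

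Within a compartment, cells with a Cd69 UMI could be set against cells of the same cluster without one. In dural CD4 Tc, S1pr1 stood at 32.8 CPM in the 153 cells with Cd69 (9 UMIs) against 147 CPM in the 438 cells without (96 UMIs), a ratio of 0.223 (0.0991 to 0.442). Median UMIs per cell were 1541 with Cd69 and 1324.5 without. The 405 of 591 dural cells with a Cd3 UMI held 101 of the 105 S1pr1 UMIs but 112 of the 245 Cd69 UMIs. The split was not made within those cells, and the part of this cell mix in the ratio was not tested. Rgs1 was higher in cells with Cd69, at 2967 CPM against 2225 CPM, a ratio of 1.33 (1.22 to 1.45), and S1pr4 stood at 150 CPM against 205 CPM (0.729, 0.501 to 1.04). In pia the S1pr1 ratio was 0.545 (0.208 to 1.21), and in choroid plexus all 10 S1pr1 UMIs fell in the 87 cells without Cd69, leaving 0 in the 29 with it, which allows a ratio of up to 1.36. No such difference was detected in CSF (1.22, 0.736 to 1.93) or blood (1.04, 0.731 to 1.43). Blood had 42 S1pr1 UMIs in its 80 cells with Cd69. Cells of 1 library are not replicates, and the difference between dura and blood was not tested.

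**Figure D4:**
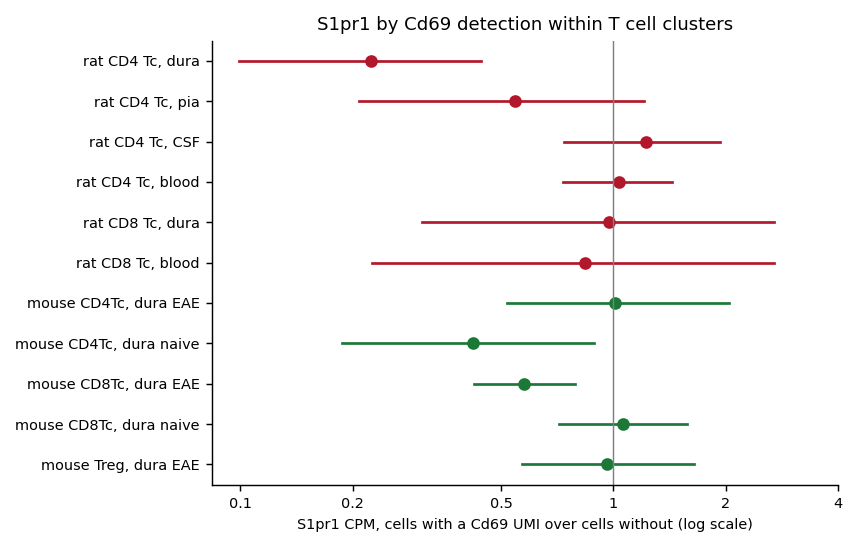
Points are the ratio of S1pr1 CPM in cells with a Cd69 UMI over cells without, on a log axis, with exact 95% intervals. Groups are of the authors' T cell clusters other than gdTc, with S1pr1 UMIs on both sides. Not all cells in them had a Cd3 UMI. The interval lay below 1 in rat dural CD4 Tc, naive mouse CD4Tc and EAE CD8Tc, and included 1 in the other groups plotted.

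In the mouse dura, all cells came from 1 tissue and the comparison was EAE over naive. Klf2, well counted here, was lower in EAE in CD4Tc and NK, and Rgs1 was lower in CD8Tc, gdTc and NK. Lef1 and Tcf7 did not pass 2-fold in any T cell cluster. The authors' cluster CD4Tc held 152 EAE and 353 naive cells, CD8Tc 226 and 240, gdTc 79 and 379, NK 154 and 106, and ILC 53 and 507. Naive Treg had 30 cells and is given as levels only. Neutrophil markers summed to 7486 CPM in EAE CD4Tc against 173 CPM in naive, to 3413 CPM against 193 CPM in CD8Tc, to 3399 CPM against 193 CPM in gdTc, to 5380 CPM against 171 CPM in NK, to 5040 CPM against 201 CPM in ILC and to 7677 CPM against 150 CPM in Treg. Macrophage and monocyte markers summed to 1695 to 2199 CPM in these EAE clusters against 278 to 473 CPM in naive. Stress genes summed to 5703 CPM against 14617 CPM in CD4Tc to 6242 CPM against 12403 CPM in CD8Tc, to 9174 CPM against 20495 CPM in gdTc, to 6720 CPM against 11099 CPM in NK, to 12821 CPM against 23716 CPM in ILC and to 6187 CPM against 10407 CPM in Treg. The part of these in the results was not tested.

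In CD8Tc, Rgs1 stood at 249 CPM in EAE (226 to 274) against 1503 CPM in naive dura (1430 to 1579), a ratio of 0.166 (0.149 to 0.185). Thinned to 1000 UMIs, 20.4% of EAE cells held an Rgs1 UMI against 58.5% of naive cells (66.8% and 85.0% before thinning). In cells with no UMI of Fos, Jun, Hspa1a and Hspa1b (56 EAE, 78 naive), Rgs1 stood at 301 CPM against 1352 CPM. Klf2 stood at 331 CPM in EAE against 619 CPM in naive, a ratio of 0.534 (0.477 to 0.599), short of 2-fold; in the cells without those 4 stress genes it stood at 228 CPM against 529 CPM, past 2-fold at a log2 ratio of -1.21. The other 6 members tested were closer, with Cd69 at 249 CPM against 346 CPM, Lef1 at 155 CPM against 176 CPM and S1pr1 at 102 CPM against 104 CPM. In the cells without the stress genes Cd69 stood at 223 CPM in EAE against 181 CPM, which turned its log2 ratio from -0.48 to 0.30. Of 8 members, 0 were higher and 1 lower, beside 6.38% and 7.92% of all genes (14.3%). Among 15 other residency genes, 10 were lower and 2 higher, with a median of -1.38 beside -0.09 over all genes. Xcl1, a chemokine of CD8 T and NK cells, stood at 296 CPM in EAE against 1596 CPM, and Cxcr6, a chemokine receptor of resident T cells, at 51.7 CPM against 333 CPM. Ahr (12.3 CPM in EAE against 3.79 CPM) and Cd101 (15.9 CPM against 5.68 CPM) were the highest ratios of that list. Of 11 other recirculation genes, Pecam1 (18.8 CPM in EAE against 4.73 CPM) was higher and Bach2 (14.1 CPM against 34.1 CPM) was lower.

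In CD4Tc, the naive and EAE cells differed in identity markers. T cell markers summed to 9003 CPM in EAE against 3889 CPM in naive, and Cd4 stood at 164 CPM against 28.3 CPM. ILC markers summed to 874 CPM in EAE against 1813 CPM. Among them Gata3, a factor of type 2 lymphocytes, stood at 27.9 CPM against 480 CPM. Gamma delta T cell markers summed to 10.9 CPM in EAE against 343 CPM. NK markers summed to 865 CPM in EAE against 134 CPM, and regulatory T cell markers to 257 CPM against 169 CPM. A Cd3 UMI was found in 147 of 152 EAE cells and 141 of 353 naive cells. Over the whole cluster Cd69 stood at 248 CPM in EAE against 701 CPM in naive (ratio 0.354, 0.311 to 0.403), Il7r at 308 CPM against 714 CPM (0.431, 0.382 to 0.485) and Klf2 at 44.96 CPM against 159 CPM (0.283, 0.208 to 0.381). S1pr4 stood at 67.4 CPM in EAE against 30.6 CPM (2.20, 1.49 to 3.30), while EAE granulocytes of granulo1 held 99.2 CPM of it. Of 8 members, 1 was higher and 3 lower, beside 17.1% and 9.32% of all genes (26.5%). Under TMM the S1pr4 log2 ratio was 0.94, short of 2-fold. Rgs1, at a log2 ratio of 0.13, turned to -0.07 under TMM and to -0.57 among cells with a Cd3 UMI (820 CPM in EAE against 1220 CPM), and stood at 0.53 in cells without Fos, Jun, Hspa1a and Hspa1b (851 CPM against 588 CPM), so its direction depended on the cells kept. Among cells with a Cd3 UMI, the log2 ratios were -1.35 for Cd69, -1.06 for Il7r and -2.95 for Klf2, and S1pr1 stood at 33.1 CPM in EAE against 68.0 CPM (-1.04, against 0.20 in the whole cluster). In cells without Fos, Jun, Hspa1a and Hspa1b (55 EAE, 89 naive), Cd69 stood at 187 CPM in EAE against 280 CPM, a log2 ratio of -0.58, and S1pr4 at 0.21, both short of 2-fold. Of 15 other residency genes 1 was higher and 3 lower (median 0.14, beside 0.22 over all genes), and of 7 other recirculation genes 3 were higher and 3 lower.

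**Figure D5:**
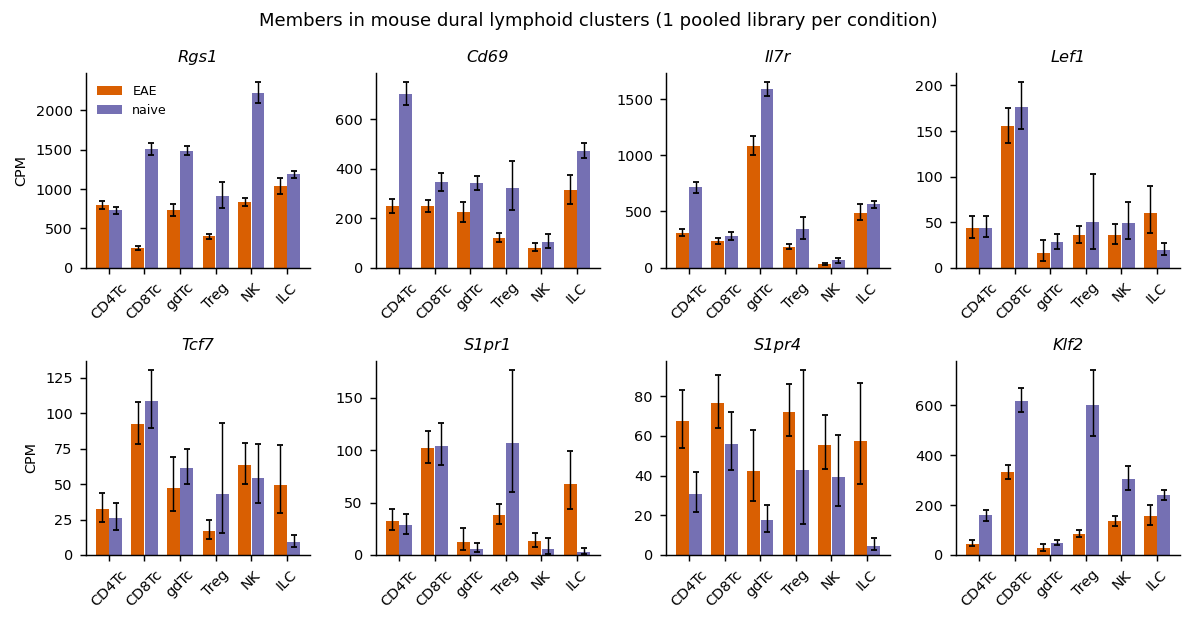
Bars give CPM in EAE and naive mouse dura for the members other than Itgae in 6 lymphoid clusters, 1 pooled library per condition, on axes that start at 0, with exact Poisson 95% intervals. Rgs1 in CD8Tc stood at 249 CPM in EAE against 1503 CPM in naive, and Klf2 in CD4Tc at 44.96 CPM against 159 CPM.

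In gdTc, Rgs1 stood at 731 CPM in EAE against 1485 CPM in naive (ratio 0.492, 0.442 to 0.546) and S1pr4 at 42.2 CPM against 17.5 CPM (2.41, 1.34 to 4.28); 1 of 8 members was higher and 1 lower, beside 8.35% and 8.41% of all genes (16.8%). With ribosomal and mitochondrial genes left out of the total, the Rgs1 log2 ratio moved from -1.02 to -0.91, short of 2-fold. Il7r was high in both, at 1086 CPM in EAE against 1585 CPM. Of the mouse clusters compared, gdTc alone had 20 UMIs of Itgae, at 29.9 CPM in EAE against 15.7 CPM in naive, with overlapping intervals. Mouse NK cells had Klf2 at 136 CPM in EAE against 307 CPM (0.444, 0.356 to 0.553) and Rgs1 at 831 CPM against 2225 CPM (0.374, 0.343 to 0.406); of 7 members 0 were higher and these 2 lower, beside 8.01% and 7.06% of all genes (15.1%). In EAE Treg (116 cells), Cd69 stood at 121 CPM, Rgs1 at 399 CPM, Klf2 at 83.7 CPM and S1pr1 at 38.3 CPM, beside 321, 914, 600 and 107 CPM in the 30 naive cells.

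The ILC cluster gave the highest ratios, but its cells were not alike. S1pr1 stood at 67.7 CPM in EAE (26 UMIs) against 3.31 CPM in naive (7 UMIs), S1pr4 at 57.3 CPM against 4.73 CPM, Tcf7 at 49.5 CPM against 8.98 CPM and Lef1 at 59.9 CPM against 19.8 CPM. T cell markers summed to 5074 CPM in the EAE cells against 1122 CPM in the naive cells, and ILC markers to 3056 CPM against 12630 CPM. Cd3d stood at 521 CPM in EAE against 8.03 CPM. The part of these cells in the result was not tested. All ILC ratios moved by -0.71 under TMM, which left Lef1 at 0.88, short of 2-fold, and put Cd69 and Klf2 past 2-fold lower. Of 8 members 4 were higher and 0 lower, beside 27.9% and 7.60% of all genes (35.5%).

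Mouse cells with a Cd69 UMI were also set against those without. In naive CD4Tc (176 cells with, 177 without), Klf2 stood at 114 CPM with Cd69 against 206 CPM without (ratio 0.553, 0.409 to 0.741), S1pr1 at 16.9 CPM against 40.2 CPM (0.421, 0.187 to 0.886), S1pr4 at 18.4 CPM against 43.4 CPM and Lef1 at 30.7 CPM against 57.9 CPM. Naive CD8Tc went the other way for Klf2, at 690 CPM with Cd69 against 539 CPM without (1.28, 1.09 to 1.5), while S1pr4 was again lower with Cd69, at 35.6 CPM against 78.8 CPM (0.452, 0.250 to 0.795). In EAE the Klf2 ratio was 0.601 in CD4Tc (0.347 to 1.04) and 1.07 in CD8Tc (0.891 to 1.29). In EAE CD4Tc no difference in S1pr1 was detected (1.01, 0.518 to 2.04). In EAE CD8Tc S1pr1 was lower with Cd69, at 83.6 CPM against 145 CPM (0.577, 0.423 to 0.789), and in naive CD8Tc it stood at 107 CPM against 101 CPM (1.06, 0.715 to 1.57). Whether EAE and naive cells, or CD4Tc and CD8Tc, differed in these ratios was not tested. In naive CD4Tc, the 141 of 353 cells with a Cd3 UMI held 337 of 892 Cd69 UMIs but 141 of 202 Klf2 UMIs. They held 35 S1pr1 UMIs, where the whole cluster had 11 in cells with Cd69 and 25 in cells without. The part of this cell mix in the naive CD4Tc ratios was not tested.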

How the data were processed

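The authors deposited UMI counts, not normalized, with a cluster name and group for most barcodes. Per the submitters' processing notes, Cell Ranger 3.1.0 was run against mm10 and Rnor_6.0; the file headers give 3.0.2 for rat. Groups follow sample titles; the condition label of the naive mouse samples reads EAE too, and the mouse comparisons rest on the titles being right. The members and lists were chosen with earlier results of these data known. A recirculation gene listed at the outset is not reported here and enters no count or median of its list. Unannotated barcodes (19.4% in rat, 9.49% in mouse) were left out, as was cluster BcProg, whose EAE cells lacked B cell markers. Doublets were kept with no caller run, and B cell receptor tables were not used here.

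Counts were summed per authors' cluster and group. CPM carry exact Poisson 95% intervals, ratios exact conditional binomial ones and shares Clopper-Pearson ones. Ratios needed 20 UMIs over both sides and 50 cells per side, and a side at 0 was set to 3 UMIs over the group. Shares were thinned to 500 (rat) or 1000 (mouse) UMIs. Patterns used log2(CPM + 10). Named genes are the 2 highest and 2 lowest ratios of a list, with those behind counts of 5 or fewer chosen after values were seen, as was the TATAAA search. The ratio step was tested on simulated counts. Python 3.11.15, numpy 2.4.6, pandas 2.3.3, scipy 1.17.1 and matplotlib 3.10.9 were used, with edgeR 4.0.16 (R 4.3.3) for TMM factors alone. Promoters are from RefSeq (7 of 9 members matched) and mouse positions from GENCODE M21.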

Additional observations from a re-analysis of the deposited data

Results flagged for a closer look

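Cd69 and Rgs1 differed from blood by 2-fold or more in opposite directions in rat tissue and CSF, but the CSF side fell short of 2-fold under TMM. Cd69 in CD4 Tc had log2 ratios to blood of 2.42 in dura, 2.59 in pia and 2.36 in choroid plexus, and of -1.01 in CSF. Rgs1 in CD4 Tc had 5.98 in dura, 5.39 in pia, 5.66 in choroid plexus and 5.74 in CNS, and -1.11 in CSF. Cd69 in NK had 1.21 in dura, 2.31 in pia and 1.94 in choroid plexus, and -1.21 in CSF. Under TMM the CSF values were -0.67 for Cd69 and -0.77 for Rgs1 in CD4 Tc and -0.97 for Cd69 in NK. These comparisons share the blood library, and the difference between them was not tested beyond the direct ratio of dura to CSF given for CD4 Tc.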

How the results depend on the processing

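No paired analysis was possible because each group is 1 pooled sample, and no replicate could be left out. Numbers of genes past 2-fold depended on the filter and on the fold, by construction. They are given for rat CD4 Tc (dura, pia, choroid plexus, CNS and CSF over blood, then dura over CSF), rat CD8 Tc (dura over blood, CSF over blood, dura over CSF) and mouse CD4Tc, CD8Tc and gdTc, in that order. With at least 50 UMIs they were 1135, 1205, 1193, 902, 1178, 1552, 137, 196, 189, 1112, 498 and 529. Without a filter they were 5320, 6028, 7102, 6733, 5255, 6869, 3962, 3550, 4263, 4894, 3439 and 4202. At 1.5-fold they were 3385, 3597, 3347, 3015, 3965, 4188, 920, 983, 885, 3530, 2513 and 2611. In cells without Fos, Jun, Hspa1a and Hspa1b they were 1040 in mouse CD4Tc and 597 in CD8Tc, and in cells without myeloid markers 862 (rat CD4 Tc, pia over blood) and 787 (CSF over blood), with fewer cells and so fewer genes tested.

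Of 134 member ratios, 16 moved beyond their counting interval under TMM, 1 with cells weighted equally and 14 without ribosomal and mitochondrial genes; restricting cells moved 16 of 69 (a Cd3 UMI) and 15 of 69 (no Fos, Jun, Hspa1a and Hspa1b), and 6 of 9 moved without myeloid markers. None that was past 2-fold changed sign under these settings. Of 64 past 2-fold, 7 fell short under TMM, 1 with cells weighted equally and 6 without ribosomal and mitochondrial genes; 1 of 32 fell short among cells with a Cd3 UMI, 5 of 33 without Fos, Jun, Hspa1a and Hspa1b (Tcf7 in pial CD4 Tc among them, from -1.54 to -0.79) and 1 of 4 without myeloid markers. TMM put 4 others past 2-fold, among them Itgae in choroid plexus NK (1.16) and Klf2 in mouse gdTc (-1.07). The restriction to cells as deep as the shallowest EAE cell (5722 UMIs) was not run for T cell, NK and ILC clusters, since under 50 naive cells were left; the other restrictions were likewise not run where a side kept under 50 cells, as in dural CD4 Tc without myeloid markers (22 cells).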
